A study of Homo sapiens with 6 samples.

Results

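The chemokines described here are the CXC and CC ligands that colon epithelium is known to make. They were chosen by name from a list of 10 genes, namely CXCL1, CXCL2, CXCL3, CXCL5, CXCL6, CXCL8, CXCL10, CXCL14, CXCL16 and CCL20. Of these, 9 had a feature in the array annotation, out of 14884 genes with a feature, and CXCL1 was not analysed here. Each of the 9 was measured by a single feature (a transcript cluster). RNA came from HCT-8, a human colon cancer cell line, and was hybridised to 6 single-colour Affymetrix arrays. On 3 arrays the cells had been transfected with a hairpin construct (shRNA) directed at TRIB3, a Tribbles pseudokinase gene, and on 3 with a control hairpin. All cells were grown in DMEM, were put under hygromycin 24 hours after transfection for 14 days, and were used as uncloned pools. The question of the design is which genes differ between the group labelled TRIB3-shRNA and the group labelled Control-shRNA. The labels name no separate cultures, so the p-values reflect how far these particular samples scatter, and that scatter may be technical.

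Chemokines are small secreted proteins that steer white blood cells through G protein-coupled receptors. CXCL1, CXCL2, CXCL3, CXCL5, CXCL6 and CXCL8 carry a glutamate-leucine-arginine motif, act through CXCR2 (CXCL6 and CXCL8 also through CXCR1) and attract neutrophils. CXCL10 is an interferon-induced ligand of CXCR3, CXCL16 is a membrane-bound ligand of CXCR6, and CCL20 attracts CCR6-bearing lymphocytes and dendritic cells. CXCL14 is made by many epithelia at rest. In intestinal epithelium, NF-kappaB and AP-1 downstream of IL-1, TNF and Toll-like receptors switch on the neutrophil-attracting group, and AU-rich elements in its mRNAs make them short-lived.

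Both genes that passed the test, CXCL8 and CXCL3, and CXCL2, which did not, are shown by the 150 bases before their transcription start, because they share an NF-kappaB motif while their signals differed. The sequences are from RefSeq on GRCh38.p14, 5′ to 3′ on the gene's strand. CXCL8 lies at chr4:73740419-73740568 on the plus strand, CXCL3 at chr4:74038690-74038839 on the minus strand and CXCL2 at chr4:74099196-74099345 on the minus strand. Capitals mark GGAATTTCC (the kappaB core) and, in CXCL8, TGANTCA (AP-1) and TATAAA.
CXCL8: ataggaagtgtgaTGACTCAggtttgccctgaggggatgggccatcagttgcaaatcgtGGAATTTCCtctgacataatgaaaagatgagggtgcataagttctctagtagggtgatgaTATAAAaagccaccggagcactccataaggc
CXCL3: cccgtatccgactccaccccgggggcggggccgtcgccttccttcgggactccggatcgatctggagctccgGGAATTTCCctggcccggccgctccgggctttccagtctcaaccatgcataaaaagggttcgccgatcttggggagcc
CXCL2: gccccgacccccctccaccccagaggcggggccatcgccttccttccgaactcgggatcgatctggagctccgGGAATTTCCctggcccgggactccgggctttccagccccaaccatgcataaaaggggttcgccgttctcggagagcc

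The kappaB core, searched on both strands from 250 bases before to 50 after the start, was in 7 of the 9 promoters found for the 10 listed genes, against 0.461% of all 35116 RefSeq promoter windows. The 7 were CXCL1, CXCL2, CXCL3, CXCL5, CXCL6, CXCL8 and CXCL10. Its first base lay 91 bases before the start in CXCL8, 78 in CXCL3 and 77 in CXCL2. The AP-1 letters were in 2 of the 9, CXCL8 and CXCL14 (7.71% of all windows), and TATAAA in 2, CXCL8 and CCL20 (11.5%). TTGCNNAA, a form of the C/EBP motif that is left in lower case in the sequences, was in 1 of the 9, CXCL2 (10.5%), outside the stretch printed. It was kept out of the capitals after its matches were seen. Other forms of the C/EBP motif were not searched, so a promoter without a match, such as that of CXCL8, may still hold one. A match describes letters only. The core was searched as a fixed string, so other kappaB sequences were counted neither in the members nor in all windows. The AP-1 and C/EBP letters allow any base at N. The background shares of these motifs are therefore not comparable. The 150-base stretches of CXCL2 and CXCL3 were 86.1% identical in alignment, and those of CXCL3 and CXCL8 43.3%. The stretch of CXCL1 was 88.7% identical to that of CXCL2 and 88.1% to that of CXCL3, and CXCL5 and CXCL6 shared 89.4%. No other pair passed 51.5% (CXCL2 and CXCL6). The 7 promoters with the core are therefore not all independent, and enrichment of the core in them was not tested. CXCL1, CXCL2 and CXCL3 are close copies as genes too, and probe sequences were not used here, so some signal of each feature may come from another copy.

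TRIB3 signal went against the labels: it read 8.40 ± 0.11 (SD, n = 3) in the arrays labelled TRIB3-shRNA and 7.33 ± 0.17 (SD, n = 3) in the control arrays, a difference of 1.07 (SE 0.14, limma adjusted p = 0.0041). Whether its feature lies where the hairpin would act was not analysed here. Every direction below therefore follows the deposited labels, which TRIB3 does not bear out. Values are RMA signals, which are background-corrected and quantile-normalized, on the log2 scale. All differences are arrays labelled TRIB3-shRNA minus control arrays, also on the log2 scale. A gene was called at a Benjamini-Hochberg adjusted p of 0.05 in limma over all 14884 genes. The 25th percentile of genes, used as a mark of dim signal, ran from 4.32 to 4.36 on the arrays labelled TRIB3-shRNA. On the control arrays it ran from 4.26 to 4.29. Levels relative to it are therefore shifted slightly down on the former. Of 12 measured colon epithelium markers, 12 lay above it on all 6 arrays, among them the adhesion gene EPCAM (10.7 to 11.1) and the intestinal transcription factor CDX2 (7.76 to 8.37).

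CXCL8 and CXCL3 were lower in the arrays labelled TRIB3-shRNA, by 1.76-fold and 1.65-fold, and the other 7 chemokines did not pass the test. So 2 of 9 were called, both lower, where 9.64% of all genes were called in either direction and 6.39% were called lower. The members were chosen with earlier results of these data known, so this count is no independent test of the set. The 1435 calls over all genes were 484 higher and 951 lower. They were 659 and 818 with arrays centred on the median, 853 and 825 on the 75th percentile and 339 and 1112 on the 25th, and both chemokine calls held under each. The total was 507 without TRIB3-shRNA replicate 1, 372 without its replicate 2 and 2696 without its replicate 3. It was 261 without Control-shRNA replicate 1 and 199 without its replicate 2. The count of chemokines was 0 without TRIB3-shRNA replicate 2 or Control-shRNA replicate 1, and 1 (CXCL3) without Control-shRNA replicate 2. The groups did not overlap in signal for these 2 genes, 22.2% of the 9, which is no more than the 32.0% of all genes. The median difference over the 9 was -0.04, beside 0.04 over all genes, and it turned to 0.06 with arrays centred on the 75th percentile, when that of all genes was 0.14. In level, 3 members (CXCL2, CXCL5 and CXCL16) lay above the 25th percentile on all 6 arrays, CXCL3 and CXCL8 on all 3 control arrays, and 4 (CXCL6, CXCL10, CXCL14 and CCL20) below it on all 6.

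**Figure D1:**
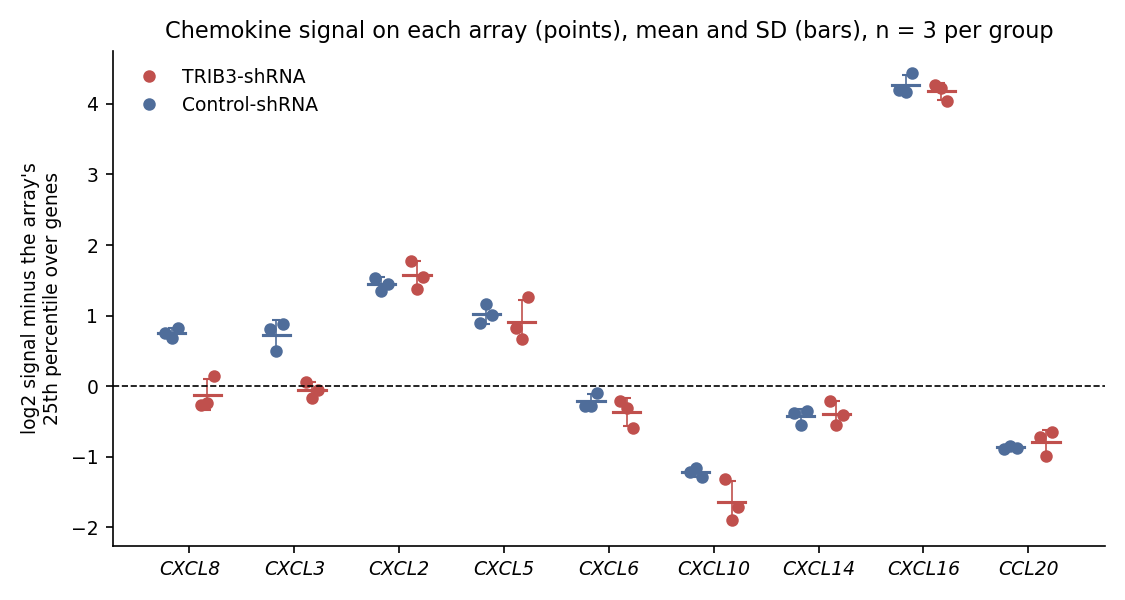
Log2 signal of the 9 chemokine genes minus the 25th percentile over genes of the same array (vertical axis), with a point per array, a bar at the mean and whiskers of 1 SD, for arrays labelled TRIB3-shRNA (red, n = 3) and Control-shRNA (blue, n = 3). CXCL8 and CXCL3 sit 0.50 to 0.88 above the percentile on the control arrays and between -0.26 and 0.14 of it on the others, CXCL10 sits at -1.90 to -1.31 against -1.29 to -1.16 on the control arrays, apart on this scale but not in signal, and the 2 groups of the other 6 genes overlap.

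CXCL8, also known as interleukin 8, is the main neutrophil attractant of human epithelium. Its signal was 4.09, 4.13 and 4.46 on the arrays labelled TRIB3-shRNA and 5.02, 4.97 and 5.13 on the control arrays. Every array labelled TRIB3-shRNA lay below every control array, and replicate 3 was the closest to them. The means were 4.22 ± 0.20 and 5.04 ± 0.08 (SD, n = 3 each), a difference of -0.81 (SE 0.14, 95% interval -1.13 to -0.49, limma adjusted p = 0.0125). Relative to the 25th percentile, its level was 0.76 ± 0.07 above in the control arrays and -0.12 ± 0.23 in the others, where only 1 of 3 arrays lay above it. In rank among all genes of an array, CXCL8 moved from a mean percentile of 38.2 in the control arrays to 23.1. How far such a level stands over array background was not analysed here, which leaves the size of the difference unsettled. In a bulk sample, fewer CXCL8-positive cells and less CXCL8 mRNA per cell cannot be told apart. The call was lost without TRIB3-shRNA replicate 2 (adjusted p = 0.0562), without Control-shRNA replicate 1 (0.0595) and without Control-shRNA replicate 2 (0.0608), with differences of -0.76 to -0.85.

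CXCL3, a CXCR2 ligand also called GRO-gamma, gave 4.42, 4.19 and 4.26 on the arrays labelled TRIB3-shRNA and 5.07, 4.79 and 5.18 on the control arrays. The groups were again apart, with control replicate 2 the lowest of its group. The means were 4.29 ± 0.12 and 5.01 ± 0.20 (SD, n = 3 each), and the difference was -0.73 (SE 0.14, 95% interval -1.05 to -0.40, limma adjusted p = 0.0201). Its level fell from 0.73 ± 0.20 above the 25th percentile to -0.05 ± 0.11, with 1 of 3 arrays labelled TRIB3-shRNA above it, so the size is as open as that of CXCL8. With 1 array left out, the call was lost without TRIB3-shRNA replicate 2 (adjusted p = 0.0786) and without Control-shRNA replicate 1 (0.0938), with differences of -0.68 and -0.70.

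**Figure D2:**
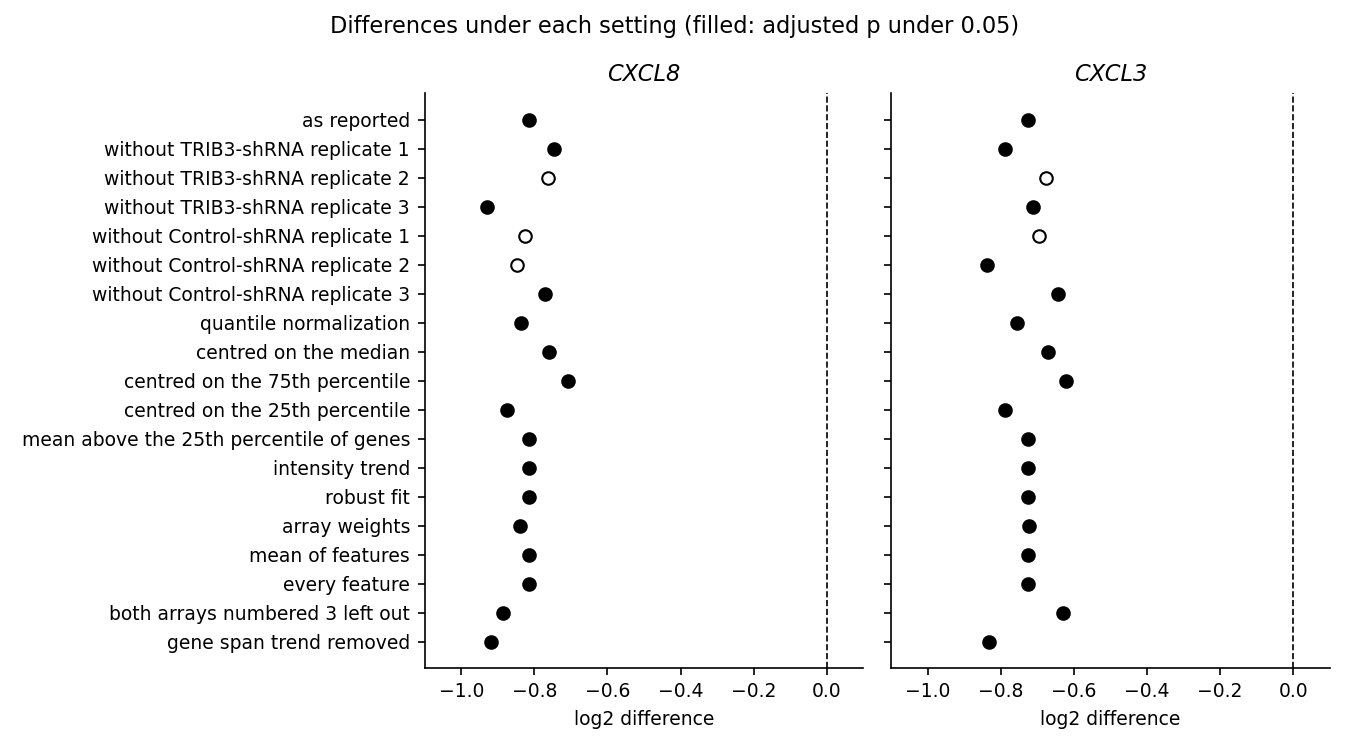
Log2 difference (arrays labelled TRIB3-shRNA minus control arrays) of CXCL8 and CXCL3 as reported and with other settings or with arrays left out; filled symbols mark an adjusted p under 0.05. Every point lies left of 0, between -0.93 and -0.62, and the open symbols among the fits plotted are those without TRIB3-shRNA replicate 2, Control-shRNA replicate 1 or, for CXCL8, Control-shRNA replicate 2.

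The closest relative of CXCL3 on the array, CXCL2 (GRO-beta), ran the other way without passing the test. It read 6.13, 5.74 and 5.87 on the arrays labelled TRIB3-shRNA and 5.80, 5.64 and 5.75 on the control arrays, and the groups overlapped. Its difference was 0.18 (95% interval -0.14 to 0.50, limma adjusted p = 0.428). It was the brightest of the neutrophil-attracting group relative to its array, 1.57 ± 0.20 and 1.45 ± 0.09 above the 25th percentile. The inequality was tested within arrays: CXCL3 minus CXCL2 was -1.72, -1.55 and -1.61 on the arrays labelled TRIB3-shRNA and -0.73, -0.85 and -0.57 on the control arrays. That is a shift of -0.91 with no overlap, and a two-sided exact permutation p of 0.1, the smallest that 3 against 3 arrays can give. CXCL8 minus CXCL6, its neighbour on the chromosome, was -0.06, 0.08 and 0.73 on the arrays labelled TRIB3-shRNA and 1.03, 0.96 and 0.92 on the control arrays. The shift was -0.72, also with no overlap and an exact permutation p of 0.1, and replicate 3 of the former came close to the control arrays. CXCL6 was below the 25th percentile on all 6 arrays, so this pair rests on a dim gene. Both pairs were chosen after their values were seen, and adjusted over the 2 pairs the p stayed at 0.1.

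CXCL5 and CXCL6, another pair of close copies, showed no shift beyond their spread. CXCL5 read 5.18, 5.02 and 5.58 against 5.15, 5.45 and 5.30 on the control arrays, a difference of -0.04 (95% interval -0.42 to 0.34, limma adjusted p = 0.894). It was above the 25th percentile on every array, by 0.67 to 1.26. CXCL6 read 4.15, 4.05 and 3.73 against 3.98, 4.01 and 4.20, a difference of -0.09 (95% interval -0.43 to 0.25, limma adjusted p = 0.728). It stayed below the percentile on all 6 arrays. The sign of CXCL5 turned under 4 of its 19 alternatives and that of CXCL6 under 3 of 18. The intervals of both genes lie above the differences found for CXCL8 and CXCL3. They overlap the interval of CXCL3 (-1.05 to -0.40) but not that of CXCL8 (-1.13 to -0.49).

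**Figure D3:**
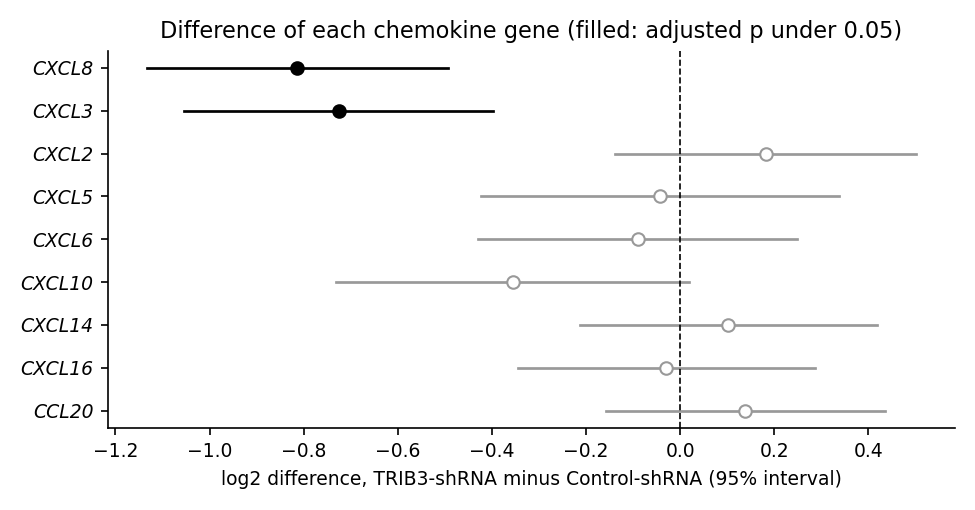
Log2 difference (arrays labelled TRIB3-shRNA minus control arrays, n = 3 each) of the 9 chemokine genes with its 95% interval from limma. Filled symbols mark an adjusted p under 0.05: CXCL8 at -0.81 and CXCL3 at -0.73 stand left of 0, and the intervals of the other 7 genes include 0.

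The chemokines that do not act through CXCR2 did not pass the test either. CXCL10 was the dimmest member, at 3.04, 2.46 and 2.61 on the arrays labelled TRIB3-shRNA and 3.05, 3.13 and 3.00 on the control arrays. Replicate 1 of the former reached the control range while the other two lay below it. Its difference was -0.36 (95% interval -0.73 to 0.02, limma adjusted p = 0.193), at a level of -1.22 ± 0.07 relative to the 25th percentile in the control arrays, far into the dim range. CXCL14 read 4.15, 3.80 and 3.91 against 3.88, 3.73 and 3.94, a difference of 0.10 (95% interval -0.21 to 0.42, limma adjusted p = 0.668). CCL20 read 3.63, 3.37 and 3.66 against 3.38, 3.45 and 3.42, a difference of 0.14 (95% interval -0.16 to 0.43, limma adjusted p = 0.518). Both were below the 25th percentile on every array, down to -0.55 for CXCL14 and -0.99 for CCL20.

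CXCL16 was the only member above the median of genes on all 6 arrays, and stood at a mean rank percentile of 91.5 in the control arrays and 91.9 in the others. It encodes a transmembrane chemokine that is also a scavenger receptor for oxidised lipoprotein. Its signal was 8.62, 8.58 and 8.36 on the arrays labelled TRIB3-shRNA and 8.46, 8.46 and 8.73 on the control arrays. The difference was -0.03 (95% interval -0.35 to 0.29, limma adjusted p = 0.91), and its sign turned under 7 of 20 alternatives. Here the signal was far from the dim range, 4.04 to 4.43 above the 25th percentile.

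Profiles over the 6 arrays, each centred on its own mean, were compared by their root mean square (RMS) difference in log2 units. CXCL8 was the only member that ranged over at least 1 log2 unit (1.03). CXCL3 just missed that limit (0.99) and was not searched. Among genes brighter than the median, those most like it were TMEM19 (RMS 0.05), the zinc finger gene ZBTB25 (0.06) and SLC66A3 (0.07). TMEM19 read 5.77, 5.75 and 6.13 against 6.78, 6.62 and 6.72. Like CXCL8 it was highest among the arrays labelled TRIB3-shRNA on replicate 3, which follows from its choice by likeness. Of the 36 pairs of chemokines, CXCL2 and CXCL14 were the most alike (RMS 0.06), and CXCL3 and CXCL8 were the 8th (0.18). The profiles of CXCL3 and CXCL8 differed within the arrays labelled TRIB3-shRNA, where CXCL8 was highest on replicate 3 and CXCL3 on replicate 1. On the control arrays both were highest on replicate 3 and lowest on replicate 2.

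In the RefSeq gene order, CXCL8 is the first and CXCL2 the last gene of a chemokine cluster on chromosome 4, followed by genes for ligands of the epidermal growth factor (EGF) receptor. Of 15 measured genes from AFM to PARM1, 2 fell and 1 rose, while 12 did not pass. Over all genes 6.39% were called lower and 3.25% higher. The median difference of the 15 genes was 0.03, and -0.04 with quantile normalization. CXCL8 and CXCL3 were not next to each other: CXCL6, PF4V1, PF4, PPBP and CXCL5 lie between them among the measured genes, with differences of -0.09 to 0.18 and adjusted p of 0.484 to 0.909. EREG, an EGF receptor ligand beyond CXCL2, rose by 1.58 (SE 0.21, limma adjusted p = 0.00436). It read 7.46, 7.13 and 7.98 on the arrays labelled TRIB3-shRNA and 6.10, 5.87 and 5.86 on the control arrays. Its neighbours EPGN (0.36, adjusted p = 0.462) and BTC (-0.21, adjusted p = 0.363) did not pass the test. AREG was not analysed here.

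**Figure D4:**
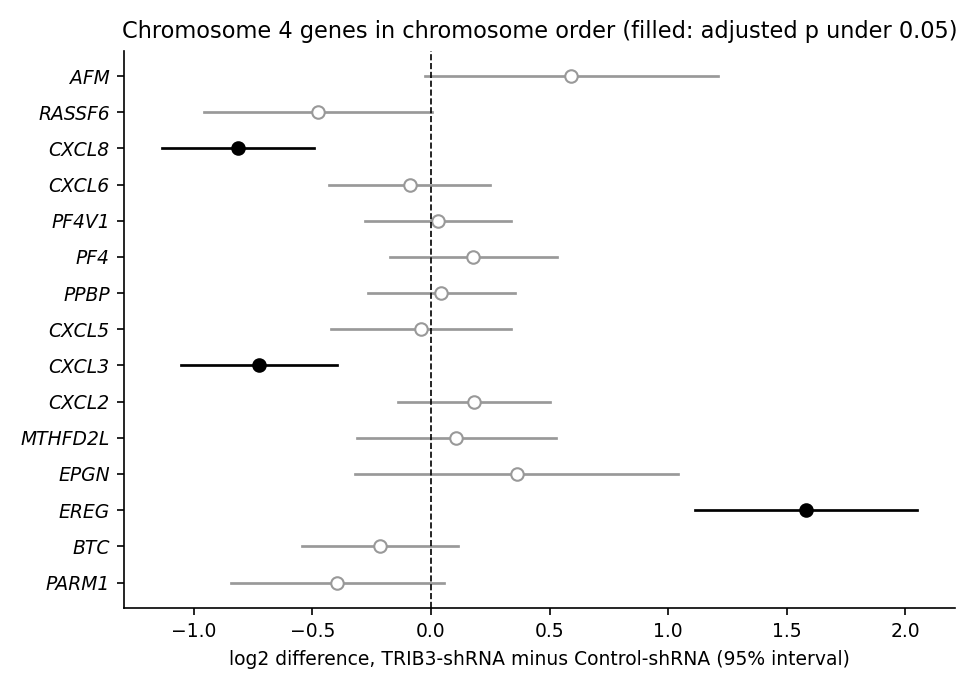
Log2 difference (arrays labelled TRIB3-shRNA minus control arrays, n = 3 each) with its 95% interval for 15 measured genes of chromosome 4, from top to bottom in chromosome order without scale. The 2 falls, CXCL8 and CXCL3, are separated by 5 genes with differences of -0.09 to 0.18, and EREG is the only rise.

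Of 31 other chemokine ligands measured, 3 rose and 28 did not pass the test, with a median difference of 0.12, where 3.25% of all genes were called higher. CCL5 (RANTES), which attracts T cells and monocytes, rose by 0.73 (SE 0.15, limma adjusted p = 0.024). It was well above the dim range, at 7.34, 7.59 and 7.11 on the arrays labelled TRIB3-shRNA and 6.51, 6.59 and 6.76 on the control arrays. XCL1 differed by 0.88 (adjusted p = 0.0173) and CCL23 by 0.60 (adjusted p = 0.0223), but both were below the 25th percentile on all 6 arrays, and XCL1 has a near-identical copy, XCL2. CCL5 and CCL23 each lost the call under 5 alternatives (adjusted p up to 0.11 and 0.112), and XCL1 under 3 (up to 0.0782).

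Of the 20 measured chemokine receptors 0 were called by limma, 2 had an unadjusted p under 0.05, and 0 lay above the median of genes on all 6 arrays. Limma called 9.64% of all genes. The share of all genes with an unadjusted p under 0.05 was not analysed here, so counts at that threshold have no background beside them. CXCR2, the shared receptor of the neutrophil attractants, differed by 0.26 (adjusted p = 0.252) and CXCR1 by -0.17 (adjusted p = 0.612). Both were below the 25th percentile on every array, as was the CXCL16 receptor CXCR6 (-0.01, adjusted p = 0.981). The CXCL10 receptor CXCR3 (-0.03, adjusted p = 0.932) and the CCL20 receptor CCR6 (0.03, adjusted p = 0.908) lay above it in their group means.

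Genes that induce or limit chemokine expression moved in both directions. Over all genes 6.39% were called lower and 3.25% higher, the shares beside which the counts of the lists below stand. Of 13 NF-kappaB factors and kinases, 3 fell and 10 did not pass the test (median -0.16): TAB2 by 0.93 and TAB3 by 0.76 on the log2 scale, both adaptors of the TAK1 kinase, and the subunit gene REL by 0.68 (limma adjusted p = 0.0355, 0.0329 and 0.0482). REL lost its call under 10 of 20 alternatives, TAB2 under 5 and TAB3 under 6. RELA (0.25, adjusted p = 0.235) and NFKB1 (0.23, adjusted p = 0.226), the usual pair of subunits, did not pass the test. Of 7 measured feedback inhibitors of the pathway 0 were called by limma and 3 had an unadjusted p under 0.05, with differences of -0.58 to 0.47, and NFKBIA and TNFAIP3 were not analysed here. Differences varied with gene span on these arrays: 12.7% of 4239 genes spanning over 50 kb were called lower against 2.40% of 3251 spanning up to 5 kb. With each array's trend on span removed, TAB2 (-0.79, adjusted p = 0.0417) and TAB3 (-0.65, adjusted p = 0.0383) were still called. REL was not (-0.59, limma adjusted p = 0.0577). CXCL8 and CXCL3 span 3.15 and 2.10 kb, and in that fit their differences were -0.92 (adjusted p = 0.0109) and -0.83 (adjusted p = 0.0106).

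Of 23 receptors and adaptors upstream of chemokine genes, 2 rose and 1 fell (median 0.07). IRAK1, the kinase of the IL-1 and Toll-like receptor pathway, rose by 1.21 (SE 0.19, limma adjusted p = 0.00833) from 7.84, 7.56 and 8.13 on the control arrays to 9.17, 9.23 and 8.75. TRAF3 rose by 0.50 (adjusted p = 0.0361) and RIPK2, the kinase of the NOD receptors, fell (-0.76, adjusted p = 0.0456), and each lost its call under 6 of 20 alternatives. IRAK1 kept its call under all 20. Of 10 AP-1 and C/EBP factors, JUND rose by 0.69 (adjusted p = 0.0281) and ATF2 fell (-0.99, adjusted p = 0.0361), both lost under 5 of 20 alternatives. FOSL1 (0.66, adjusted p = 0.0802) and JUN (-0.02, adjusted p = 0.931) did not pass the test.

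Of 15 other NF-kappaB targets measured, 1 rose and 14 did not pass the test (median 0.18, lowest difference -0.14). The 1 that rose was PTGS2, the inducible cyclooxygenase, often induced by the same signals as CXCL8, at 8.17, 8.17 and 8.49 against 3.69, 3.89 and 3.74 on the control arrays, which lay below the 25th percentile. Of 7 measured genes for binders and regulators of AU-rich mRNAs 0 were called by limma and 3 had an unadjusted p under 0.05 (median -0.33), and ZFP36 was not analysed here. Of 20 interferon response genes 1 fell, the kinase gene JAK1 (-0.91, adjusted p = 0.0375, lost under 5 of 20 alternatives), and 19 did not pass the test, with a median of 0.01 that turned to -0.05 with arrays centred on the 25th percentile.

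**Figure D5:**
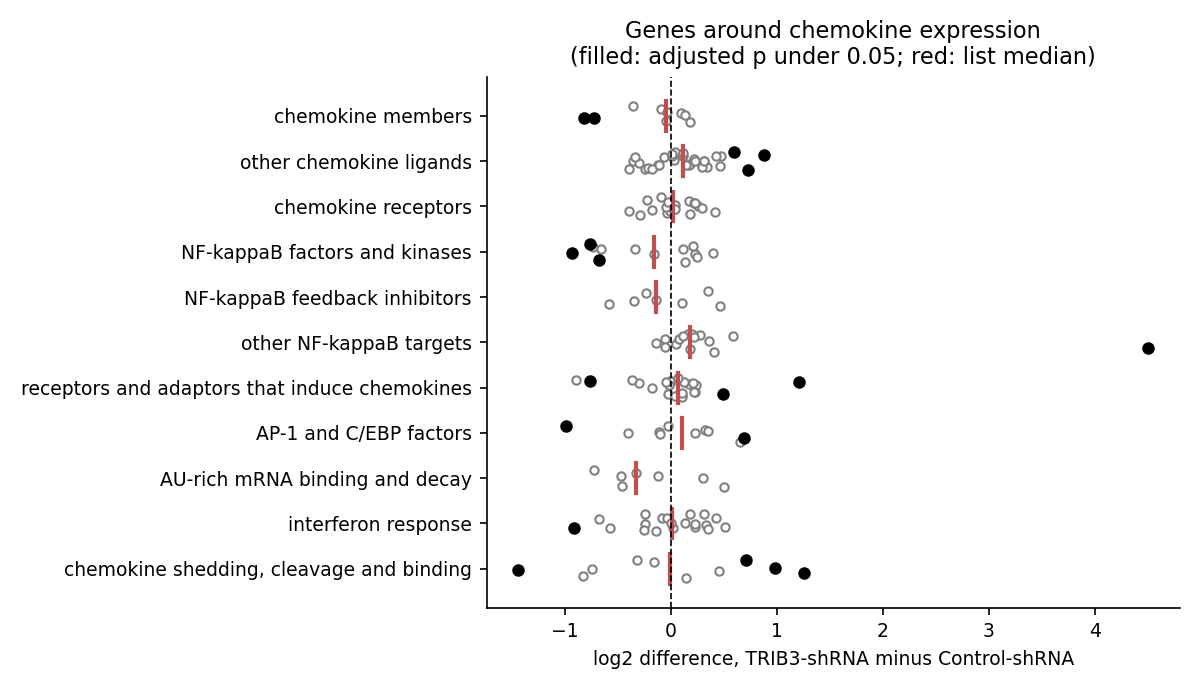
Log2 differences (arrays labelled TRIB3-shRNA minus control arrays) of the measured genes of 11 lists around chemokine expression, a point per gene with random vertical spread. Filled points mark an adjusted p under 0.05 and red lines the list medians, which run from -0.33 to 0.18, and PTGS2 stands far right at 4.51.

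Of 10 measured genes that shed, cleave or bind chemokines, 3 rose and 1 fell, where 3.25% of all genes were called higher and 6.39% lower. SDC4, a heparan sulfate proteoglycan, rose by 0.98 (SE 0.14, limma adjusted p = 0.00535), with 8.45, 8.22 and 8.08 against 7.24, 7.30 and 7.26. The collagenase gene MMP1 rose by 1.26 (adjusted p = 0.00507) and the collagenase gene MMP13 fell (-1.44, adjusted p = 0.0173, lost under 4 of 19 alternatives with adjusted p up to 0.0815). The lower mean of each lay below the 25th percentile of every array, at 3.92 for MMP1 and 3.83 for MMP13, so these sizes are not settled. DPP4, a peptidase that trims CXCL10, also rose (0.71, adjusted p = 0.0407); it was picked out once its value was known. The CXCL16 sheddases ADAM10 (-0.75, adjusted p = 0.086) and ADAM17 (-0.32, adjusted p = 0.253) did not pass the test.

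Of the 12 measured colon epithelium markers, 2 rose and 10 did not pass the test (median 0.34), where 3.25% of all genes were called higher. The number higher was 3 with quantile normalization or arrays centred on the median and 4 centred on the 75th percentile, and on the 25th 2 were higher and 1 lower. KRT20, a keratin of mature colonocytes, rose by 2.27 (limma adjusted p = 0.000444), and the transcription factor gene CDX1 by 0.69 (adjusted p = 0.0372, lost under 5 of 20 alternatives). The summed log2 signal of the 12 was 99.9 to 100.8 on the arrays labelled TRIB3-shRNA and 93.8 to 97.1 on the control arrays. The groups did not overlap. KRT20 had the largest difference in that sum, and VIL1 (-0.44), CLDN7 (-0.32) and KRT8 (-0.04) went the other way. Sums of the chemokine members, the NF-kappaB factors and kinases, and the other NF-kappaB targets did not overlap between groups either. Those of the remaining lists did. These sums include the called genes, namely CXCL8 and CXCL3, then REL, TAB2 and TAB3, and then PTGS2 (4.51). They were not computed without them. Of single genes 32.0% did not overlap, and how often sums of other lists do not overlap was not analysed here. The part of the summed marker signal in the falls of CXCL8 and CXCL3 was not tested. Markers of other cells that make or answer chemokines were not called: 0 of 8 leukocyte markers and 0 of 5 fibroblast and endothelial markers passed limma's test, and 0 of either had an unadjusted p under 0.05. Of the 8 leukocyte markers, CD14, LYZ, CSF3R and S100A8 lay below the 25th percentile on all 6 arrays, and CD68 (7.93 in both groups), CSF1R, TYROBP and S100A9 above it on all 6. Of the 5 fibroblast and endothelial markers, DCN and LUM lay below it on all 6. VWF lay above it on 4 arrays, and PECAM1 and KDR on 1 each.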

How the data were processed

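RNA of 6 samples was measured, 3 per group, with groups and replicate numbers from the sample titles. The authors deposited log2 signals; the submitters' processing notes name RMA and Affymetrix Expression Console 1.4.1. Their range fits a log2 scale. Scanner files were not used here, and the annotation's genome build was not given in the sources used here. Of 53617 features, 16098 had 1 gene symbol, 0 several and 37519 none, and all 16098 matched RefSeq by gene identifier (GRCh38.p14, used for names, spans and gene order). The brightest feature was kept for 779 genes with more than 1, which left 14884 genes.

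The comparison used limma 3.58.1 under R 4.3.3, with group alone in the model (lmFit, then eBayes; two-sided; 95% intervals unadjusted). No dim gene was removed. The design's fit was kept as planned. Promoter motifs were searched with Python 3.11.15. The fit was tested on simulated data of 14884 genes, 200 of them changed. It recovered 0.0% of changes of 0.5 log2 units, 66.5% of changes of 1.0 and 98.0% of changes of 2.0. False calls numbered 0, 9 and 5. A gene that did not pass may therefore still differ by the smaller sizes. In the data 1435 genes were called, so the share recovered there may not be the same. Alternatives were the replicate number as a block, each array left out, quantile normalization, centring on the 25th, 50th or 75th percentile, filters on dim genes, an intensity trend, robust fitting, array weights, and other treatment of a gene's features. Leaving out both arrays numbered 3 and removing the trend on gene span (lowess span 0.3) were chosen after seeing the data. The number of arrays limits the precision.

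The members and lists were chosen with earlier results of these data known. Genes were named by rule: all measured members, TRIB3, from each list the up to 3 called genes of smallest adjusted p, a fixed set of receptors, factors and proteases, and the 3 genes most like a member ranging over at least 1 log2 unit. That search left out uncharacterised loci and small RNA genes. Of the fixed set, ACKR1, CEBPB, IL1A, IL1B and MMP9 were also not analysed here.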

Additional observations from a re-analysis of the deposited data

How the results depend on the processing

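CXCL8 and CXCL3 kept their direction under all 19 alternatives each, with differences of -0.93 to -0.71 and -0.84 to -0.62, and each lost its call under 3, for CXCL3 counting the replicate block (adjusted p up to 0.0608 and 0.0938). Neither was tested when only genes above the median level were kept. With arrays left out the count of called chemokines ran from 0 to 2 and that of all genes from 199 to 2696. The count of all genes was 4099 with array weights and 3392 without both arrays numbered 3, a setting chosen after seeing the data. The median difference of all genes was 0.04, and 0.14 with arrays centred on the 75th percentile. The replicate numbers did not pair the arrays: deviations of same-numbered arrays correlated across genes at -0.20, -0.09 and -0.43. With the replicate number as a block, 1 chemokine was called (CXCL8, adjusted p = 0.0427, with CXCL3 at 0.0565) and 402 genes in all, and no array correlated best with its own number. Members above the reference level on all 6 arrays numbered 3 with the 25th percentile of genes, 7 with that of all features and 1 with the median of genes. FOSL1, ADAM10 and ADAM17, not called as reported, were called under 4, 3 and 2 of 20 alternatives. The cause of these changes was not tested. Signal over background was not measured here; CXCL6, CXCL10, CXCL14 and CCL20 lay below the 25th percentile on all 6 arrays.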
